A study of Equus caballus with 14 samples.

Results

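The transcripts of 5 genes of the IL-12 and IL-23 pathway (IL12B, IL23A, IFNG, IL17A and CXCL10) were followed in the mediastinal lymph nodes of horses with recurrent airway obstruction (RAO, also called heaves) and of control horses. The 5 genes were chosen by name and not by a rule on their measured values, but with earlier results of these data known. Of the array's 43603 probes, 11 could be named as theirs, IL12B, IL23A and IL17A with 1 probe each, IFNG with 3 and CXCL10 with 5. A gene name could be given to 1251 of the probes, which cover 599 genes.

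Lymph node RNA from 7 control horses and 7 RAO-affected horses was labelled with a single dye and read on 14 one-colour Agilent arrays, 1 horse on each. All horses were adults of mixed breed, of the species Equus caballus. Every horse, control horses included, had been brought in from pasture and stabled with dusty hay, the setting that provokes RAO in susceptible horses, before the node was taken after euthanasia. The RAO-affected horses were older on average, so that age and disease cannot be told apart. Each node piece held cortex and medulla, and in such a bulk sample fewer cells of a type and less RNA per cell cannot be told apart.

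IL-12 and IL-23 are cytokines made of a pair of protein chains, released mainly by dendritic cells and macrophages when these present antigen to T cells. Both contain the p40 chain encoded by IL12B. In IL-12 it is joined to p35, the product of IL12A, and in IL-23 to p19, the product of IL23A. IL-12 drives T cells and NK cells to make interferon gamma (IFNG), which in turn induces CXCL10, a chemokine that draws activated T cells through the receptor CXCR3. IL-23 sustains T cells that make IL-17A (IL17A), a cytokine that induces neutrophil-attracting chemokines in epithelial and stromal cells. RAO is an airway disease in which neutrophils gather in the airways, and the mediastinal nodes drain the lung.

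The IL17A probe was identified by the transcript for which the study designed its PCR primers, and the pair is shown because it belongs to that transcript. The pair does not mark the stretch that the probe read, as no probe sequence was used. No PCR values were used here. Both primers are given 5′ to 3′ in lower case, with no base set apart.
IL17A forward primer: cagatccagcccttcttcag
IL17A reverse primer: acccacagcggcatatagtc

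Each array measured between 32696 and 39947 probes as well above background. The range was 32854 to 39809 in the control horses and 32696 to 39947 in the RAO-affected horses. The 14 arrays lay on 4 slides, each of which held both groups. The 3 arrays of slide 1, which held RAO-affected horse 4 with control horses 3 and 5, were scanned 16 days after the rest and stood apart, with correlations of 0.986 to 0.991 among themselves and of 0.923 to 0.959 with the other 11 arrays. Results are therefore also given within slides and without slide 1. T-cell markers of the node were well above background on every array, as shown by CD2 and CD28, but no B-cell marker on the list was found among the named probes. Levels are log2 of the quantile-normalized signal, differences are RAO-affected minus control, and the number of horses limits their precision.

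No probe differed between the groups after adjustment for multiple testing. In the limma fit over the 38674 probes tested, 0 (0%) had an adjusted p of at most 0.05, while 2177 (5.63%) had an unadjusted p under 0.05, 1069 (2.76%) of them lower and 1108 (2.86%) higher in RAO-affected horses. Of all probes tested, 569 (1.47%) differed at least 2-fold with an unadjusted p under 0.05. Among the 5 genes, IL12B alone had a probe in that last class. It made 1 of 11 probes, all 11 of which were tested.

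The plot of each horse's signal shows the 5 genes side by side.

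**Figure D1:**
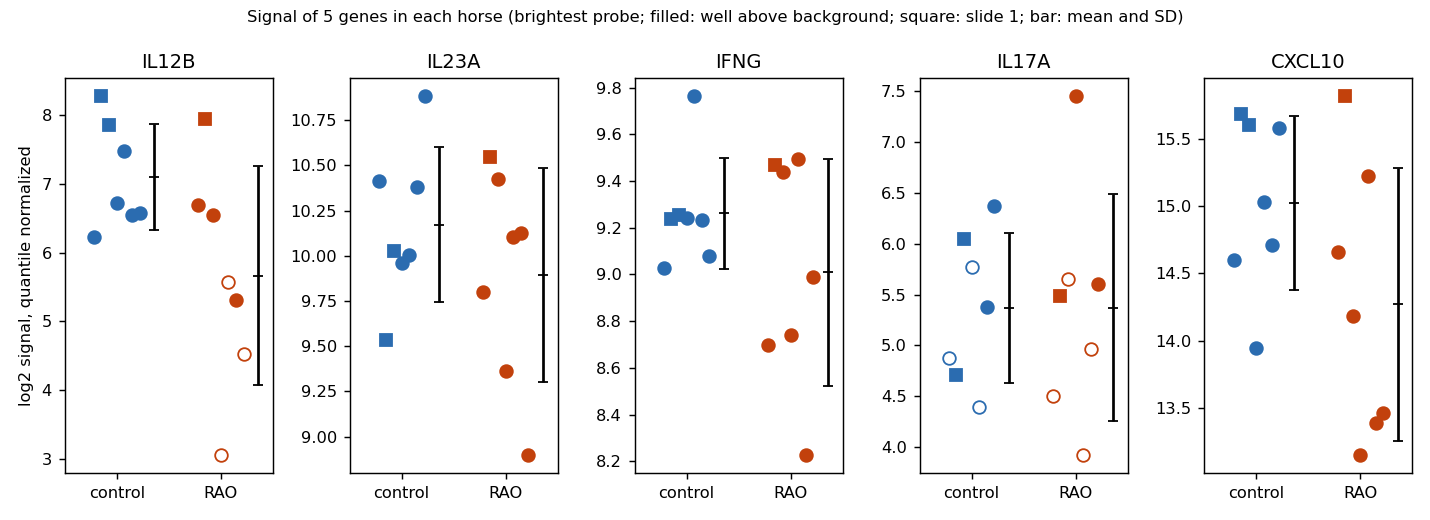
log2 quantile-normalized signal (y axis, its range set for each panel) of IL12B, IL23A, IFNG, IL17A and CXCL10 in 7 control and 7 RAO-affected horses, 1 point a horse, with the mean and SD of each group. For IL12B, the open points of RAO-affected horses 8, 10 and 14 were not well above background and lie low, whereas for IL17A the group means of 5.36 and 5.37 lie level.

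IL12B, the p40 chain common to IL-12 and IL-23, had the widest gap between the group means of the 5 genes on the quantile-normalized scale, although after normexp background correction CXCL10 had it (−0.54 for IL12B, −0.73 for CXCL10). In the control horses its log2 signal was lowest at 6.23, had its median at 6.72 and was highest at 8.28. In the RAO-affected horses the lowest was 3.05, the median 5.57 and the highest 7.95. Signal well above background was read in 7 of 7 control horses but in 4 of 7 RAO-affected horses, the exceptions being horses 8, 10 and 14, whose low values have no order among themselves. RAO-affected horse 12 was measured below all 7 control horses, and horses 2, 4 and 6 were within the control range. Over all probes, the lowest signal well above background was 5.92 on the array of horse 8 and 3.86 on that of horse 14. On the array of horse 10 it was 6.59, above the IL12B values of control horses 1, 11 and 13. That signal is no limit for a single probe, as IL12B of horse 14, at 4.53, exceeded it but was not well above background. Horses 8, 10 and 14 were measured below every control horse, but their true places among the control horses are not known. The mean was 7.10 ± 0.77 (SD, n = 7) in control and 5.66 ± 1.60 (SD, n = 7) in RAO-affected horses.

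The IL12B difference was −1.44 on the log2 scale (SE 0.63, 95% interval −2.79 to −0.08), or 2.71-fold lower. Its unadjusted limma p was 0.0389 and its adjusted p 0.873, and the exact two-sided permutation test over horses gave p = 0.0513. With the slide as a fixed block the difference was −1.11 and its unadjusted limma p was above 0.05 (adjusted p = 0.421). Without slide 1 it was −1.43 (exact permutation p = 0.0390).

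The 4 slides did not show the IL12B difference alike. It was −0.12 within slide 1 and 0.14 within slide 2, against −3.17 within slide 3 and −1.65 within slide 4. On slide 3 a single control horse, 9, stood against RAO-affected horses 8 and 10, both not well above background. Slides 3 and 4 carried RAO-affected horses 8, 10, 12 and 14, the 3 not well above background and the 1 measured below the control range. Under normexp the −0.54 had an exact permutation p of 0.0577. Raising the values of horses 8 and 10 to the lowest signal well above background on their own arrays gave −0.88. The value of horse 14, at 4.53, was already above that signal on its array (3.86) and was kept. The unadjusted limma p was above 0.05 without control horse 3, 5 or 9 and without RAO-affected horse 8, 10, 12 or 14, the differences then running from −1.42 to −1.003.

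IL23A, the p19 chain particular to IL-23, overlapped widely between the groups. Its log2 signal ran from 9.53 over a median of 10.02 to 10.88 in control horses, and from 8.90 over a median of 10.10 to 10.55 in RAO-affected horses. RAO-affected horses 8 and 14 were below every control horse, and control horse 13 was above every RAO-affected horse. All 14 arrays read the probe well above background. The means were 10.17 ± 0.43 and 9.89 ± 0.59 (SD, n = 7 each).

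The IL23A difference of −0.28 (SE 0.27, 95% interval −0.85 to 0.29) was within the spread between horses, with a limma p of 0.313 (adjusted p = 0.947) and an exact permutation p of 0.341. It was −0.26 with the slide as a block and −0.54 without slide 1 (exact permutation p = 0.106). Within slides 1 to 4 it was 0.77, −0.08, −0.27 and −1.12, so that its direction turned on slide 1, where a single RAO-affected horse stood against 2 control horses.

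IL12A, the p35 chain of IL-12 and no member of the chosen 5, is given because it is the other partner of p40. The brightest of its 5 probes had a mean log2 signal of 9.98 ± 0.40 in control and 10.18 ± 0.46 in RAO-affected horses (SD, n = 7 each). The difference of 0.21 had a limma p of 0.372 and an exact permutation p of 0.353, and the 5 probes ranged from 0.12 to 0.26. All 5 IL12A differences were above 0, whereas those of IL12B and IL23A were below 0. Whether these differences differ from each other was not tested.

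IFNG, the cytokine that IL-12 induces, was read by 3 probes that gave nearly one difference between the groups but did not place every horse alike. By the brightest, the log2 signal in control horses was lowest at 9.03, had its median at 9.24 and was highest at 9.76, and all control horses but horse 9 lay between 9.03 and 9.26. In the RAO-affected horses the lowest was 8.23, the median 8.99 and the highest 9.50. RAO-affected horses 2, 8, 12 and 14 were below every control horse, while horses 4, 6 and 10 were above all control horses but horse 9. By this probe the RAO-affected horses were thus spread to both sides of most control horses. By A_69_P001507 and A_69_P001508, horses 2, 8 and 12 were below every control horse but horse 14 was not. By A_69_P001507 horse 4 was at 8.94, below the control median of 8.99. The means of the brightest probe were 9.26 ± 0.24 and 9.01 ± 0.49 (SD, n = 7 each).

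The IFNG difference of −0.25 (SE 0.20, 95% interval −0.69 to 0.18), or 1.19-fold, did not pass the test (limma p = 0.229, adjusted p = 0.924, exact permutation p = 0.245). The 3 probes gave −0.26, −0.26 and −0.25 and correlated at 0.861 to 0.966 over the horses. With the slide as a block the difference was −0.27, and without slide 1 it was −0.34 (exact permutation p = 0.208). Within slides 1 to 4 it was 0.22, −0.07, −0.64 and −0.55. All 3 probes were well above background in all 14 horses.

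IL17A, the cytokine of the T cells that IL-23 sustains, lay near the detection limit of the array. It was well above background in 4 of 7 control horses (3, 5, 11 and 13) and in 3 of 7 RAO-affected horses (4, 8 and 14). The log2 signal ran from 4.39 over a median of 5.38 to 6.37 in control horses and from 3.92 over a median of 5.49 to 7.45 in RAO-affected horses. RAO-affected horse 8 was measured above every control horse, and horses 4 and 14 lay inside the control range. The 7 values not well above background have no order. Horse 8, highest in IL17A, was the lowest of all 14 horses in CXCL10 and its IL12B was not well above background.

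The IL17A means were 5.36 ± 0.74 and 5.37 ± 1.12 (SD, n = 7 each), with a difference of 0.01 (SE 0.48, limma p = 0.991, adjusted p = 0.999, exact permutation p = 0.990). The 95% interval of −1.02 to 1.03 leaves room for a change of about 2-fold either way, so that an equal level was not shown. Without RAO-affected horse 8 the difference was −0.34 and without horse 10 it was 0.25. Within slides 1 to 4 it was 0.11, −0.24, 1.29 and −0.59. On slide 3 a single control horse, 9, stood against RAO-affected horses 8 and 10, and only horse 8 was well above background. Control horses 1 and 7 and RAO-affected horses 2 and 10 lay below the lowest signal well above background on their arrays. With these raised to that signal the IL17A difference was 0.34, again within the spread between horses. Control horse 9 and RAO-affected horses 6 and 12, not well above background but already above that signal, kept their values.

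CXCL10, the chemokine that interferon gamma induces, was strongly read by all 5 probes in all 14 horses. By the brightest probe the log2 signal ran from 13.94 over a median of 15.03 to 15.69 in control horses. In RAO-affected horses it ran from 13.15 over a median of 14.19 to 15.82. RAO-affected horses 8, 12 and 14 were below all control horses, and horse 4 was above all of them. The spot of horse 4 was saturated in 4 of the 5 probes, so that its level there is a lower limit, and 1 probe (A_69_P001352) was saturated on no array.

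The CXCL10 means were 15.02 ± 0.65 in control and 14.27 ± 1.02 in RAO-affected horses (SD, n = 7 each). The difference of −0.76 (SE 0.43, 95% interval −1.68 to 0.17), or 1.69-fold, did not pass the test (limma p = 0.102, adjusted p = 0.901, exact permutation p = 0.121). The 5 probes gave −0.78 to −0.64, the smallest size being that of the unsaturated probe (exact permutation p = 0.189). They correlated at 0.977 to 0.998 over the horses. With the slide as a block the difference was −0.61 (adjusted limma p = 0.522), and without slide 1 it was −0.76 (exact permutation p = 0.121).

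As for IL12B, the CXCL10 difference was near 0 on the first pair of slides, at 0.17 within slide 1 and 0.15 within slide 2. It was −0.84 within slide 3 and −1.73 within slide 4. Leaving out RAO-affected horse 4 gave −1.01 (exact permutation p = 0.0355) and leaving out control horse 7 gave −0.94 (exact permutation p = 0.0670), the 2 of 14 omissions that brought the unadjusted limma p under 0.05.

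**Figure D2:**
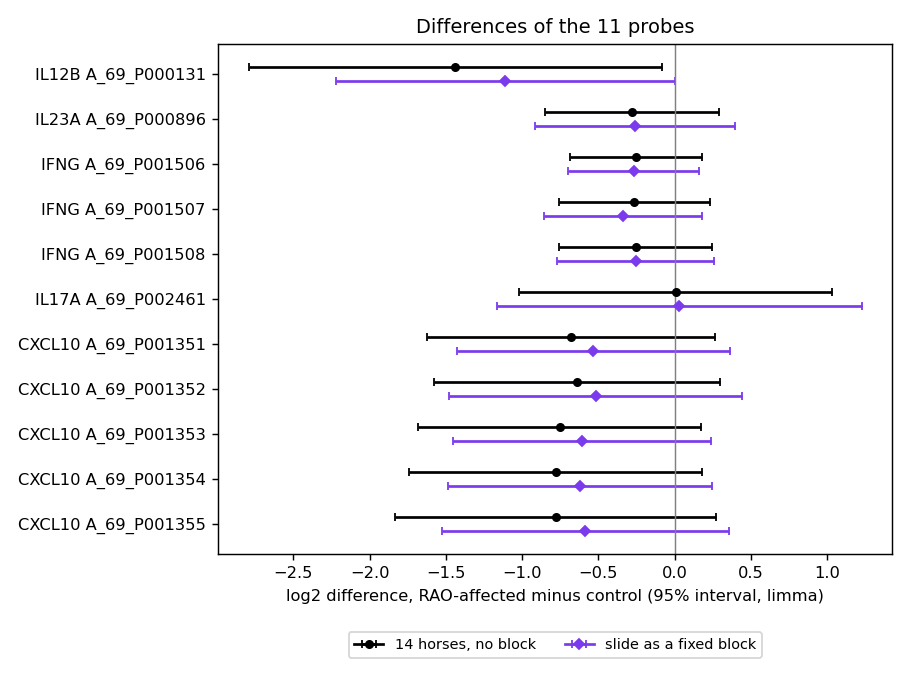
Difference in log2 signal, RAO-affected minus control (x axis), of each of the 11 probes, with its 95% limma interval, from all 14 horses without a block (circles) and with the slide as a fixed block (diamonds). The interval of IL12B ends at −0.08 without the block and reaches 0 with it, and the intervals of the other 10 probes span 0 in both fits.

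The relation of IFNG to CXCL10 over horses was asked for because interferon gamma induces CXCL10, and it was computed among all 10 pairs of the 5 genes. Over 14 horses Pearson's r was 0.589 (permutation p = 0.0251, 0.126 after adjustment over the 10 pairs) and Spearman's rho was 0.591 (permutation p = 0.0284, adjusted 0.142). The relation therefore did not hold after adjustment. Within the groups r was 0.01 in the 7 control horses (exact permutation p = 0.985, rho = 0.21, exact permutation p = 0.662) and 0.69 in the 7 RAO-affected horses (exact permutation p = 0.0891, rho = 0.68, exact permutation p = 0.110). The difference between the groups was not tested.

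With group means removed, r of IFNG with CXCL10 was 0.52, and with slide means removed as well it was 0.50. Without slide 1 it was 0.57. Leaving out RAO-affected horses 2 and 12, the farthest from the IFNG median, gave 0.53 over the other 12 horses (permutation p = 0.0772). Without horse 2 alone r was 0.62 (permutation p = 0.0170), whereas without horse 12 alone it was 0.47 (permutation p = 0.103) and without horse 8 alone 0.54 (permutation p = 0.0556), so that a p under 0.05 depended on each of horses 8 and 12. Over the 15 combinations of an IFNG probe with a CXCL10 probe, r ranged from 0.31 to 0.63. Horse 12 was lowest of all 14 in IFNG and second lowest in CXCL10.

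CXCL10 had a higher correlation with IL12B than with IFNG, although the difference between these correlations was not tested. Pearson's r of IL12B with CXCL10 was 0.815 (permutation p = 0.00029, 0.0029 after adjustment over the 10 pairs) and rho was 0.789 (permutation p = 0.00135, adjusted 0.0135). It was the one pair of the 10 that passed after adjustment. Within the groups r was 0.62 in control horses (exact permutation p = 0.128, rho = 0.71, exact permutation p = 0.0881) and 0.82 in RAO-affected horses (exact permutation p = 0.0248, adjusted 0.241, rho = 0.86, exact permutation p = 0.0238).

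The r of IL12B with CXCL10 was 0.77 with group means removed and 0.72 with group and slide means removed. It was 0.69 without slide 1, 0.68 without RAO-affected horses 8 and 14, the farthest from the IL12B median (permutation p = 0.0159), and 0.83 over the 11 horses in which IL12B was well above background. Over the 14 omissions of a single horse it stayed between 0.76 and 0.87. With the 5 CXCL10 probes it ranged from 0.76 to 0.82, so that the relation did not depend on the saturated spots. With the number of probes well above background on an array, IL12B had an r of 0.47 (permutation p = 0.0895) and CXCL10 of 0.39 (permutation p = 0.169), neither of which passed the test (0.423 for both after adjustment over the 5 genes). With that number regressed out, r of IL12B with CXCL10 was 0.78.

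**Figure D3:**
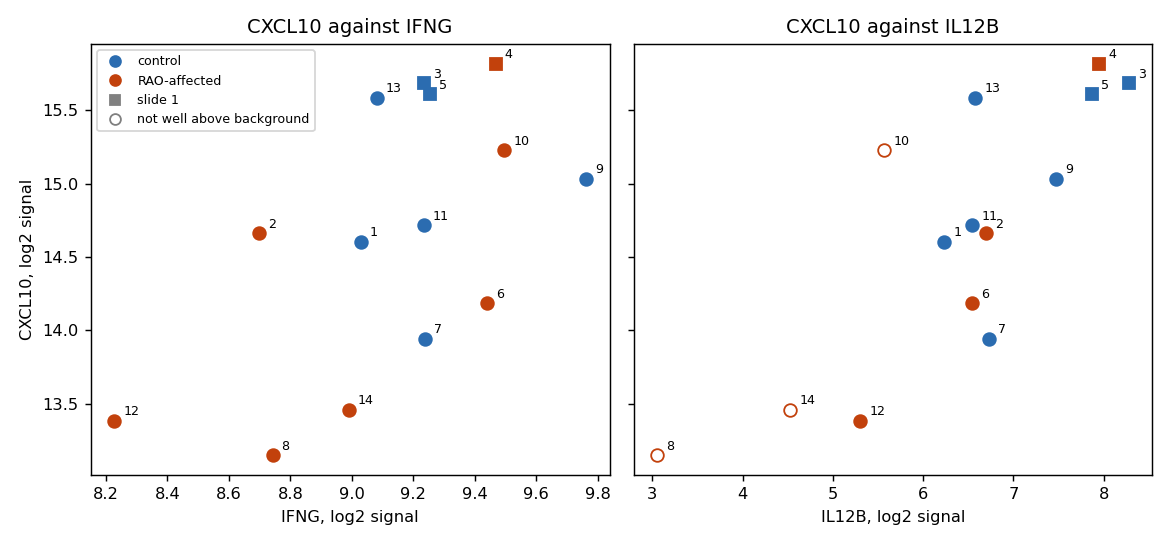
log2 signal of CXCL10 (y axes) against that of IFNG and of IL12B (x axes) in 14 horses, each point a horse with its number, colour giving the group, squares slide 1 and filled points a probe well above background on the x axis. Pearson's r is 0.589 with IFNG and 0.815 with IL12B, and RAO-affected horses 8, 12 and 14 lie low in CXCL10 in both panels.

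Among the other pairs, IL12B and IL23A went opposite ways in the groups. Their r was −0.78 in control horses (exact permutation p = 0.0331, adjusted 0.331) and 0.76 in RAO-affected horses (exact permutation p = 0.0482, adjusted 0.241), neither of which held after adjustment over the 10 pairs. Over all 14 horses it was 0.43 (permutation p = 0.121). Without RAO-affected horses 8 and 14 it was −0.27. The difference in r between the groups was not tested. IL12B and IFNG had an r of 0.53 (permutation p = 0.0536, adjusted 0.178), and the 4 pairs with IL17A had r between −0.40 and −0.07.

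Genes whose pattern over the 14 horses was most like each of the 5 were sought among 450 named genes with a probe well above background on all arrays, by Pearson's r after group and slide means were removed. For IL12B these were GCSAM (r = 0.86), a protein of germinal-centre B cells, LYRM4 (0.86), a factor of iron-sulfur cluster assembly, and ALCAM (0.76), an adhesion molecule. For CXCL10 they were UBE2B (0.87), a ubiquitin-conjugating enzyme, GCSAM (0.85) and SNRPC (0.81), a splicing protein. GCSAM was the one gene on both lists, and without removal of the means its r was 0.78 with IL12B and 0.77 with CXCL10, whereas with CXCL10 that of UBE2B was −0.05 and that of SNRPC −0.37.

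For IL17A the nearest were SOCS3 (r = 0.87), an inhibitor of cytokine signalling, PRKAB2 (0.85), a subunit of the kinase AMPK, and ATP2A2 (0.83), a calcium pump, all resting on IL17A values of which 7 of 14 were not well above background. For IL23A they included FUNDC2 (0.89), a mitochondrial protein, and KGD4 (0.88), a component of the oxoglutarate dehydrogenase complex. For IFNG they were ATG4A (0.73), a protease of autophagy, HMGB1 (0.72), a chromatin protein, and RNF13 (0.71), a ubiquitin ligase, for which r without removal of the means was 0.26, −0.07 and 0.34. These values are a description of the 14 horses and carry no test.

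The other genes of the pathway were counted by the brightest probe of each named gene. Of the 537 named genes tested, 52 (9.68%) had an unadjusted limma p under 0.05, 38 (7.08%) higher and 14 (2.61%) lower in RAO-affected horses, and the median difference of the 537 was 0.02. With the slide as a fixed block 47 (8.75%) were higher and 27 (5.03%) lower. The counts below cover the genes that could be named on the array, and a listed gene without a named probe was not analysed here. A gene is counted by its limma p, and the p printed beside it is that of the exact two-sided permutation test over horses. Among the ligands of the IL-12 family and their inducers, 4 of 7 listed genes could be named and IL12B was the 1 below 0.05 (0 with the block), with a median difference of −0.06. IL18, which acts with IL-12 to induce interferon gamma, differed by 0.17 (exact p = 0.381). Of the 10 listed Th1 and Th17 cytokines 5 could be named, and 0 of these 5 had an unadjusted limma p under 0.05. Their median was −0.12, but 0.03 with the block and 0.02 after normexp. In addition to IFNG and IL17A these were TNF at −0.12 (exact p = 0.693), IL2, the T-cell growth factor, at 0.35 (exact p = 0.314) and CSF2, a myeloid growth factor, at −0.39 (exact p = 0.626).

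Of 32 listed receptors, signalling genes and related cytokines, 7 could be named, and 1 had an unadjusted p under 0.05, with a median of 0.04 (−0.07 with the block). It was IL4, the cytokine of Th2 cells, at −0.98 (exact p = 0.0297), well above background in 7 of 7 control and 5 of 7 RAO-affected horses. TGFB1 differed by −0.57 (exact p = 0.252) and had an unadjusted p under 0.05 with the block, at −0.25 (adjusted limma p = 0.388). The other cytokines were IL1B, an inducer of IL-17-producing cells, at 0.92 (exact p = 0.0594) and IL6 at 0.35 (exact p = 0.787). IL10, which restrains IL-12 production, differed by −0.08 (exact p = 0.504) and JAK2, a kinase of the IL-12 and IL-23 receptors, by 0.04 (exact p = 0.899).

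Of 35 listed interferon-induced genes, CXCL10 included, 6 could be named, and 1 had an unadjusted p under 0.05 (0 with the block), with a median of −0.01. That gene was MX1, an antiviral protein, at −0.42 (exact p = 0.0542), with saturated spots in 2 control horses. OAS1, an antiviral enzyme, differed by −0.14 (exact p = 0.610), B2M, the light chain of MHC class I, by 0.11 (exact p = 0.0892) with saturated spots on all 14 arrays so that its sign carries no information, and NOS2, which makes nitric oxide, by 0.65 (exact p = 0.0740).

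Genes known to be induced by IL-17A had higher mean signals in RAO-affected horses in 9 of 10 cases, against 295 of all 537 named genes tested. The means of IL17A itself lay level, but an equal level was not shown. IL17A was well above background in only 4 of 7 control and 3 of 7 RAO-affected horses. Of the 20 listed IL-17-induced genes 12 could be named and 10 were tested. Of these 10, 6 were higher with an unadjusted p under 0.05 and 0 lower, with a median difference of 1.26. They were the neutrophil chemokines CXCL1 (1.21, exact p = 0.0414), CXCL6 (1.32, p = 0.0163) and CXCL8 (2.14, p = 0.0192), the antimicrobial beta-defensins DEFB4A (3.31, p = 0.00175) and DEFB4B (2.86, p = 0.00117) and the collagenase MMP1 (2.68, p = 0.0256). PTGS2, the inducible cyclooxygenase, differed by 0.99 (exact p = 0.0758). Spots were saturated in 3 RAO-affected horses for DEFB4B and in 1 each for DEFB4A and MMP1, so that these signals are lower limits. With the slide as a block 5 of the 10 were higher, CXCL1 (1.04) and MMP1 (2.40) no longer having an unadjusted p under 0.05 and PTGS2 (0.69) having one. None of the 6 passed after adjustment over all probes, where the lowest adjusted limma p was 0.873. The list was drawn up with these genes' earlier results in these horses known, and several were picked by the study on the same arrays, so that the count is no independent evidence of a direction. DEFB4A and DEFB4B are closely similar genes whose probes may share transcripts.

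**Figure D4:**
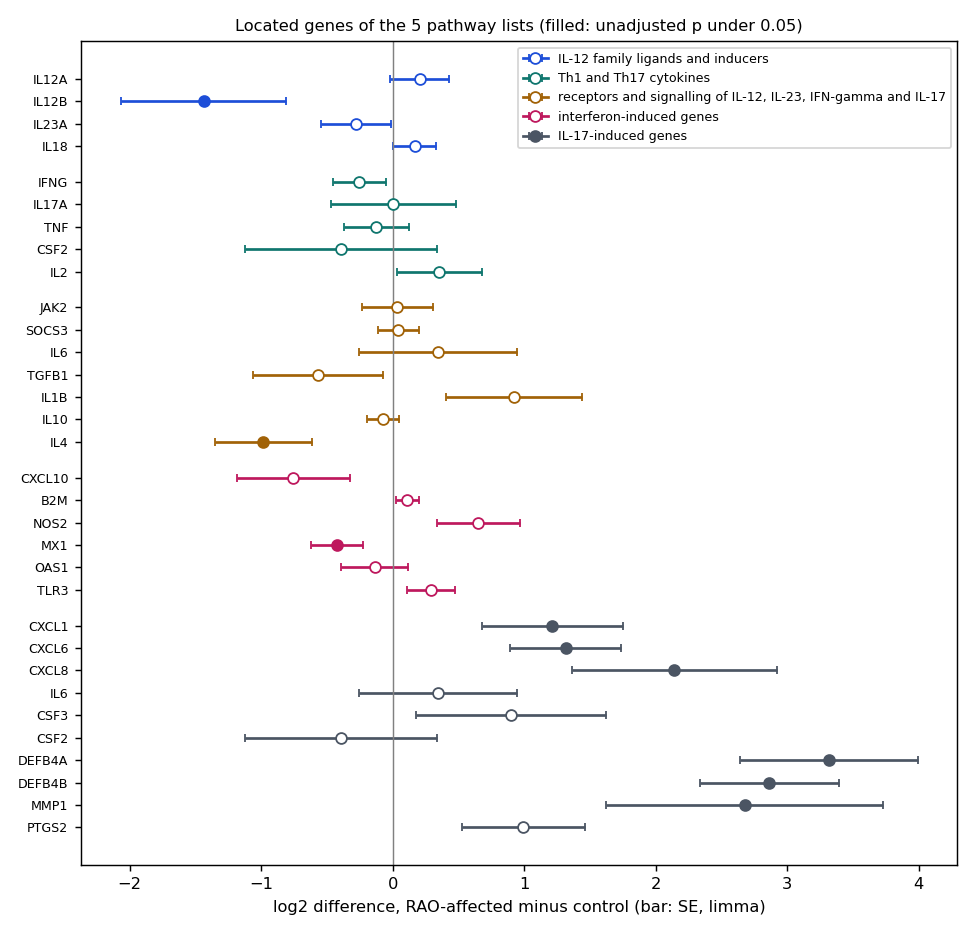
Difference in log2 signal, RAO-affected minus control (x axis), of the located genes of the IL-12, IL-23, interferon gamma and IL-17 pathway lists, with bars of 1 SE and filled points for an unadjusted limma p under 0.05. IL12B (−1.44) and IL4 (−0.98) lie to the left and 6 IL-17-induced genes, from CXCL1 at 1.21 to DEFB4A at 3.31, to the right.

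Markers of the cells that make or receive these cytokines differed between the groups in part. Of the macrophage and dendritic cell markers, 5 of 10 could be named, and 3 were higher and 1 lower with an unadjusted limma p under 0.05. CD14 differed by 1.11 (exact p = 0.0117), CD163, a scavenger receptor, by 2.61 (p = 0.000583, the smallest these permutations can give), ITGAX, the integrin CD11c, by 0.58 (p = 0.0221), and CD40, through which T cells trigger IL-12 release, by −0.43 (p = 0.0501), while CD68 differed by 0.04 (p = 0.942). The mean of the 5 markers, taken in each horse, ranged from 12.29 to 13.40 over the control horses and from 12.80 to 13.88 over the RAO-affected horses. None of the 5 markers was at background. Their part in the IL12B and CXCL10 values was not tested.

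The T-cell markers CD2 and CD28 (2 of 10 named) differed by −0.43 (exact p = 0.230) and −0.41 (exact p = 0.142). Their mean, taken in each horse, ranged from 10.502 to 11.687 over the control and from 10.171 to 11.951 over the RAO-affected horses. The cytotoxic-cell markers GZMB and GNLY (2 of 11) differed by 0.02 and 0.05, with means in each horse of 13.67 to 14.39 in control against 13.43 to 14.90 in RAO-affected horses. Of the endothelial and stromal markers 4 of 7 could be named, and SELP at 1.64 (exact p = 0.00932) and CAV1 at 1.21 (exact p = 0.0361, but no unadjusted limma p under 0.05 with the block) were higher while PECAM1 was at 0.45 and DCN at 0.19. The DCN spots of 1 control and 4 RAO-affected horses were saturated, so that these signals are lower limits. FCER1A and TPSB2 (2 of 7 eosinophil and mast cell markers) differed by 1.04 and 0.77 (exact p = 0.0752 and 0.358). No neutrophil or B-cell marker of the lists was among the named probes, and the part of any of these markers in the results was not tested.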

How the data were processed

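The scanner files covered 14 one-colour Agilent arrays (Cy3), 7 for each group of horses. Per the file headers the deposited intensity values came from Agilent Feature Extraction 10.5.1.1, whereas the submitters' processing notes name version 9.1. The column used had been background-corrected by that software. The deposited series table held a linear ratio of the quantile-normalized signal, as its log2 values correlated with those computed here at 0.999 or more, and served as an alternative.

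Control spots and outlier-flagged spots were left out, log2 intensities of the spots of a probe were averaged, and these averages were then quantile normalized. The 38674 probes that 4 or more of the 14 arrays read well above background were kept. Groups followed the labels and were compared unpaired with limma 3.58.1 in R 4.3.3 (two-sided lmFit and eBayes, with Benjamini-Hochberg adjusted p-values). The study's methods name a paired test, but no pairs were given. Each gene was also tested by an exact permutation over the 3432 splits of the horses (smallest possible p 0.000583), and correlations by 100000 resamples, or by all 5040 orders within a group of 7, with scipy 1.17.1 (Python 3.11.15). P-values measure the spread between horses.

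Probes were named by accession through a RefSeq gene table (assembly TB-T2T, 1231 probes) and the study's primer table, from which the IL17A name and primers came. No probe sequence or coordinate was used. A gene's brightest probe stood for it. Named were the 5 genes, the located genes of the pathway and marker lists (those with an unadjusted p under 0.05 and those of highest signal), and the 3 genes most like each of the 5, of which 1 is not reported here. Members and lists were chosen with earlier results of these data known. The limma step was tested on simulated data. The alternatives were 75th percentile scaling, normexp correction (offset 50, on median signals), other filters, slide as block, slide 1 left out, array weights, the ratio table, the methods' t-test unpaired, the mean over probes and each horse left out.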

Additional observations from a re-analysis of the deposited data

Results flagged for a closer look

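IFNG was higher in control horse 9 (log2 signal 9.76 by the brightest probe) than in the other 6 control horses, which lay between 9.03 and 9.26. The gap to the nearest of them made up 0.692 of the group's range, above the critical value for 7 samples. Of the 3 IFNG probes only the brightest was flagged. By A_69_P001507 control horse 9 was at 9.73, with control horse 11 next at 9.305. By A_69_P001508 control horse 9 was at 9.26, with control horse 5 next at 8.99. In all 22 groups of values were examined in this way, and chance marks about 1 in 20.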

How the results depend on the processing

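The number of probes at 2-fold with an unadjusted p under 0.05, 569 in all, was 262 with normexp correction, 291 with probes well above background on all 14 arrays and 1111 without slide 1, and 386 (without RAO-affected horse 14) to 1117 (without RAO-affected horse 4) with each horse left out. The count after adjustment was 0 in every fit run, including the methods' t-test (2033 at p under 0.05). The IL12B difference missed an unadjusted p of 0.05 with the slide as a block (−1.11) and by the methods' t-test (−1.44). The same held by an alternative chosen after seeing the data (−0.88). That alternative raised values not well above background to the lowest signal well above background on their array, where they lay below it. Within slides the IL12B difference was −0.12, 0.14 (reversed) and −3.17 on slides 1 to 3. IL23A within slides 1 and 4 was 0.77 and −1.12, IFNG within slides 1 and 3 was 0.22 and −0.64, IL17A within slide 3 was 1.29, and CXCL10 within slides 1, 2 and 4 was 0.17, 0.15 and −1.73. IL17A turned to −0.0089 without slide 1. With each horse left out the differences ran from −1.82 to −1.003 for IL12B, −0.39 to −0.11 for IL23A, −0.33 to −0.12 for IFNG, −0.34 to 0.25 for IL17A and −1.01 to −0.57 for CXCL10. The r of IFNG with CXCL10 had a permutation p above 0.05 with normexp (r = 0.466), without slide 1 (r = 0.57), with group means removed (r = 0.522) and without RAO-affected horse 8 (r = 0.535) or 12 (r = 0.471), and this r ran from 0.471 to 0.645 over the omissions. The r of IL12B with CXCL10 stayed between 0.681 and 0.827 over the alternatives, which for this pair were chosen after seeing the data, and from 0.761 to 0.872 over the omissions. Without RAO-affected horses 8 and 14 together this r was 0.678. IL12B and IL17A were not tested with the filter at all 14 arrays, since neither passed it. Scaling moved the median of all probes by under 0.1. No paired analysis was possible because the groups share no replicate numbers and no pairs were given. The causes of these changes were not tested, and low signal limits IL17A and, in 3 RAO-affected horses, IL12B.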
